A study of Arabidopsis thaliana with 9 samples.

Results

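Chloroplast-encoded genes were taken as every row of the deposited expression table whose locus code begins with ATCG, the prefix of the Arabidopsis chloroplast genome, and 73 of the 20777 rows met this rule. The plants were Arabidopsis thaliana seedlings of the Col-0 ecotype at growth stage 1.03, an early rosette-leaf stage, and RNA came from their vegetative part. They grew on MS medium at 22 °C with 16 h of light and 8 h of dark. Wild type plants, the line 35S::GA20OX and the line 35S::JAW were each measured on 3 Affymetrix ATH1 arrays, labelled as biological replicates. Both lines carry a transgene under the constitutive 35S promoter, so its expression is not limited to leaves. 35S::GA20OX overexpresses a gibberellin 20-oxidase, which makes precursors of active gibberellins, and 35S::JAW overexpresses the JAW locus, the source of a microRNA of the miR319 family that directs cleavage of several TCP transcription factor mRNAs. The sources used here do not give the number of independent transgenic lines or of seedlings per sample.

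The chloroplast genome encodes core subunits of photosystem I, photosystem II, the cytochrome b6f complex, ATP synthase and the NDH complex, the large subunit of Rubisco, ribosomal proteins, and the core subunits of a bacterial-type RNA polymerase. That polymerase is brought to its promoters by sigma factors encoded in the nucleus and works together with a set of nuclear-encoded associated proteins. A phage-type polymerase, also encoded in the nucleus, transcribes the polymerase subunit genes and other chloroplast genes. Many chloroplast genes lie in operons, and their transcripts are cut, spliced and edited by nuclear-encoded proteins. In chloroplasts a poly(A) tail marks an RNA for decay, whereas nuclear mRNAs carry stable poly(A) tails, so a labelling reaction primed on poly(A) favours nuclear RNA. The labels name only the standard Affymetrix protocol, and the part of labelling in the values below was not tested.

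The gene reference used here, RefSeq TAIR10.1, lists 78 protein-coding symbols of the chloroplast genome under a separate series of locus tags and paired 0 of the 73 ATCG codes with a symbol. The loci are therefore called by their codes, and no gene name or role is given to any of them. The codes are numbered along the chloroplast genome, so neighbouring codes stand for loci that lie close to each other.

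The arrays matched their labels. GA20OX1 had log2 values of 12.94 to 13.01 on the 35S::GA20OX arrays and of 5.07 to 6.14 on the other 6 arrays, and the values of all 5 TCP genes checked (TCP2, TCP3, TCP4, TCP10 and TCP24) were lower on every 35S::JAW array than on every other array. The median over all rows lay between 6.35 and 6.41 on the 9 arrays. Of 8 root marker genes, 7 were measured, at log2 values of 3.41 to 5.78, and 3 floral organ marker genes lay between 3.25 and 4.27. Among the shoot markers 3 of 6 were measured, and their differences of 35S::JAW minus 35S::GA20OX ran from -0.03 to 0.37 with a median of 0.01. Only the highest of them, the guard cell transcription factor FMA (FAMA), was called between the lines. It was higher in 35S::JAW than in 35S::GA20OX by 0.37 ± 0.08 (SE; limma adjusted p = 0.0127). In bulk tissue fewer cells of a type and less RNA per cell cannot be told apart.

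Chloroplast-encoded loci were among the brighter rows on every array. Their log2 values ranged from 3.74 to 14.30, and between 55 and 57 of the 73 lay in the brightest decile of their array. The median over the 73 loci was 11.76, 11.87 and 11.69 on the wild type arrays. It was 11.76, 11.72 and 11.57 on the 35S::GA20OX arrays and 11.73, 11.67 and 11.66 on the 35S::JAW arrays. The genotype means of these medians were 11.77 ± 0.09, 11.68 ± 0.10 and 11.69 ± 0.04 (SD, n = 3 arrays each), so the genotypes overlapped in the overall chloroplast signal. These log2 values are probe signals, so a higher value at one locus than at another does not show more of its RNA. Loci are ordered by signal below only to describe how bright their probes were.

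Single arrays moved the loci together, some by more than the median difference of the loci in any comparison of genotypes. Those medians were 0.03 for 35S::GA20OX minus wild type, -0.03 for 35S::JAW minus wild type and -0.03 between the lines. On wild type replicate 2, 56 of 73 loci lay above their genotype mean, with a median deviation of 0.075 on the log2 scale. On wild type replicate 3, 59 loci lay below it, with a median of -0.077. On 35S::GA20OX replicate 3, 64 loci lay below it, with a median of -0.056. The 35S::JAW arrays had median deviations of 0.023, 0.002 and -0.011.

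Replicates of these loci spread about as much as those of other rows. The median standard deviation within a genotype, pooled over the 3 genotypes, was 0.10 for the 73 loci and also 0.10 for all rows. ATCG00480, the locus with the highest mean value, had the smallest pooled standard deviation of all 20777 rows, 0.010. Its values were 14.28, 14.30 and 14.28 in wild type, 14.26, 14.29 and 14.27 in 35S::GA20OX, and 14.25 on each 35S::JAW array. The 35S::JAW arrays lay below all others at this locus, but by only 0.03 against wild type (adjusted p = 0.798), and the brightest value on any array was 14.39 to 14.56, so this locus sat near the top of the measured range. The other loci with the highest means were ATCG01310, ATCG00470, ATCG00340 and ATCG00220, with genotype means between 13.45 and 13.99 and no call in any comparison. ATCG00340 read 13.60, 13.65 and 13.59 in wild type, 13.76, 13.66 and 13.71 in 35S::GA20OX and 13.59, 13.61 and 13.57 in 35S::JAW, and its 35S::GA20OX arrays lay above all others by a small step (difference from wild type 0.09, adjusted p = 0.632). At the other end ATCG00330 and ATCG00730 had means of 4.80 and 5.20, and their arrays overlapped between all genotypes. Spread was largest at ATCG01010 (0.247), whose mean value was 4.01. It was 0.218 at ATCG01020 and 0.209 at ATCG00690.

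**Figure D1:**
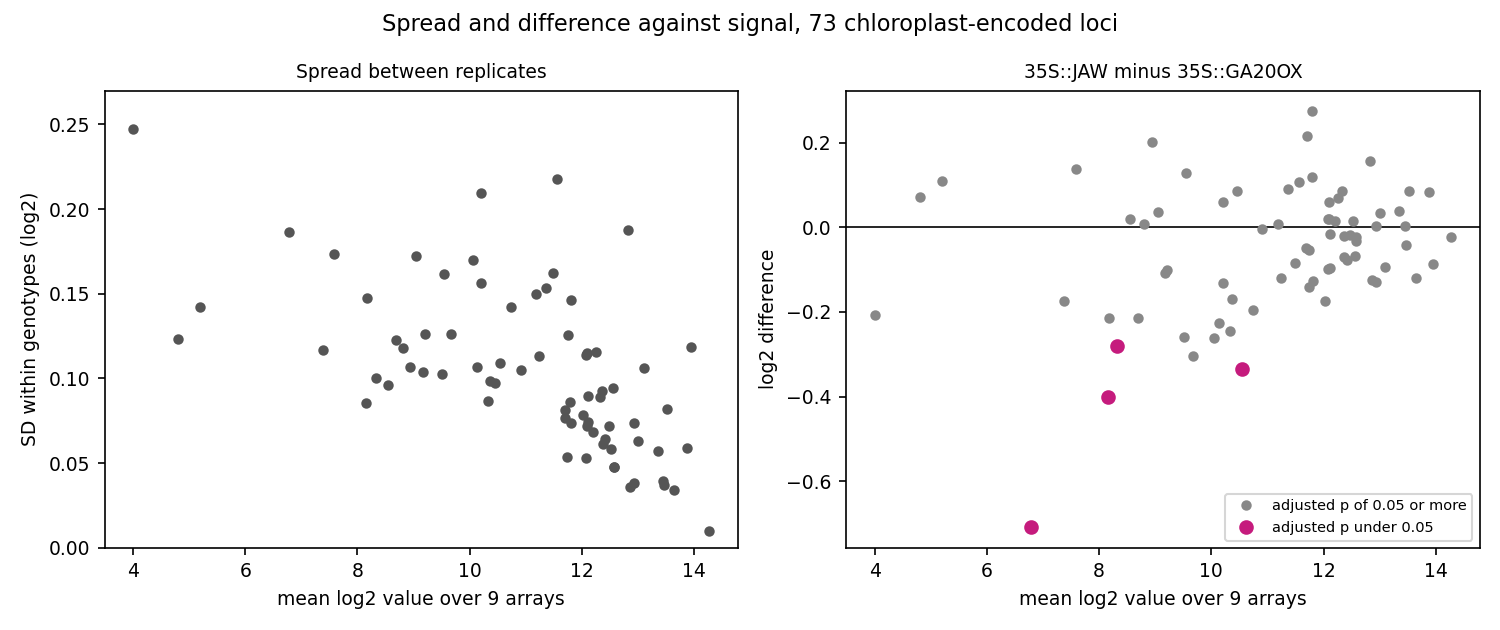
Left: pooled within-genotype standard deviation (log2) of each of the 73 chloroplast-encoded loci against its mean log2 value over the 9 arrays. Right: log2 difference, 35S::JAW minus 35S::GA20OX, against the same mean. Each point is a locus. The 4 loci called lower (magenta) fall 3 among the 24 dimmest loci, 1 among the 24 in the middle and 0 among the 25 brightest. Over all rows 6.52 percent were called lower.

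Setting 35S::GA20OX against wild type asks what raised gibberellin synthesis does to chloroplast transcripts in the young shoot. No chloroplast-encoded locus passed the test in either direction (limma, adjusted p below 0.05 by the Benjamini-Hochberg method over all 20777 rows), beside 0.164 percent of all rows called higher, 0.168 percent called lower and 0.332 percent called in all. At an unadjusted p below 0.05 there were 5 of the 73 loci, a smaller share than the 2174 of all 20777 rows in either direction. All 5 had higher values in 35S::GA20OX, and the lowest adjusted p was 0.297. The log2 differences ran from -0.17 to 0.39 with a median of 0.03, beside 0.00 over all rows, and 29 of the 73 were negative. For 71 of the 73 loci the 95 percent interval of the difference lay within 0.5 log2 units of 0.

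ATCG00190 had the largest of these differences. Its values were 6.67, 6.84 and 6.77 in wild type and 7.03, 7.42 and 6.98 in 35S::GA20OX. All 3 arrays of the line lay above all 3 wild type arrays, with a difference of 0.39 ± 0.13 (SE; adjusted p = 0.297). The loci with the next codes below it, ATCG00170 and ATCG00180, both had differences of 0.24 (adjusted p = 0.404 and 0.356). ATCG00490 read 10.07, 9.95 and 10.14 in wild type and 10.37, 10.14 and 10.35 in 35S::GA20OX, a difference of 0.23 (adjusted p = 0.365) with overlapping arrays. At the other end stood ATCG00020, ATCG00630 and ATCG01050, with differences of -0.17, -0.16 and -0.16 and adjusted p values of 0.623, 0.717 and 0.478. Arrays of the 2 genotypes did not overlap at 5 loci with higher values in the line (6.85 percent, beside 8.53 percent of all rows) and at 1 with lower values (1.37 percent, beside 8.3 percent). Together this was 8.22 percent of the loci, beside 16.8 percent of all rows.

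Setting 35S::JAW against wild type asks the same of the line in which TCP mRNAs are cleaved. A single chloroplast-encoded locus, ATCG01120, was lower in 35S::JAW and none was higher, or 1.37 percent of the loci, beside 3.98 percent of all rows called lower, 4.34 percent called higher and 8.32 percent called in all. The differences ran from -0.33 to 0.22 with a median of -0.03, beside 0.01 over all rows, and 45 of the 73 were negative. For 72 of the 73 loci the 95 percent interval lay within 0.5 log2 units of 0. At an unadjusted p below 0.05 there were 4 loci with lower and 1 with higher values, together a smaller share than the 4300 of all 20777 rows. The median turned to 0.06 when each array was centred on its chloroplast-encoded loci, a setting that shifts all rows of an array by the same amount.

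ATCG01120 read 8.32, 8.21 and 8.19 in wild type and 7.94, 7.88 and 7.92 in 35S::JAW. The groups stood apart, and the difference was -0.33 ± 0.08 (SE; adjusted p = 0.0219), a 1.25-fold lower signal. Its call was lost when wild type replicate 1 or 3 or any 1 of the 3 35S::JAW arrays was left out (adjusted p up to 0.0984), and with arrays centred on the chloroplast-encoded loci (-0.24, adjusted p = 0.179). ATCG00190 had a difference of similar size, -0.32 ± 0.13, with all 3 arrays of 35S::JAW (6.48, 6.22 and 6.61) below all wild type arrays, but an adjusted p of 0.162. ATCG00600 differed by -0.25 ± 0.09 (adjusted p = 0.133) and ATCG00050 by -0.24 ± 0.08 (adjusted p = 0.117).

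The highest differences in 35S::JAW against wild type came from loci with close codes and from ATCG00065. ATCG01060, ATCG01070 and ATCG01080 differed by 0.20, 0.13 and 0.22 (adjusted p = 0.357, 0.587 and 0.343). At all 3 of them wild type replicate 3 was the lowest of the 9 arrays: ATCG01080 read 7.59, 7.68 and 7.20 in wild type and 7.65, 7.84 and 7.63 in 35S::JAW. ATCG01020, in the same stretch of codes, read 11.39, 11.93 and 11.22 in wild type and 11.61, 11.62 and 11.66 in 35S::JAW, and the wild type array that stood high, replicate 2, set its difference of 0.12 (adjusted p = 0.710). Without that array ATCG01020 was called higher (0.33, adjusted p = 0.0313). ATCG00065 read 8.99, 8.86 and 8.77 in wild type and 9.16, 9.11 and 8.96 in 35S::JAW, a difference of 0.20 (adjusted p = 0.206) with overlapping arrays. Over all loci the groups stood apart at 8 with lower values in 35S::JAW, where 11.4 percent of all rows did so, and at 1 with higher values, where 14.2 percent did. Together this was 12.3 percent of the loci, beside 25.6 percent of all rows.

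**Figure D2:**
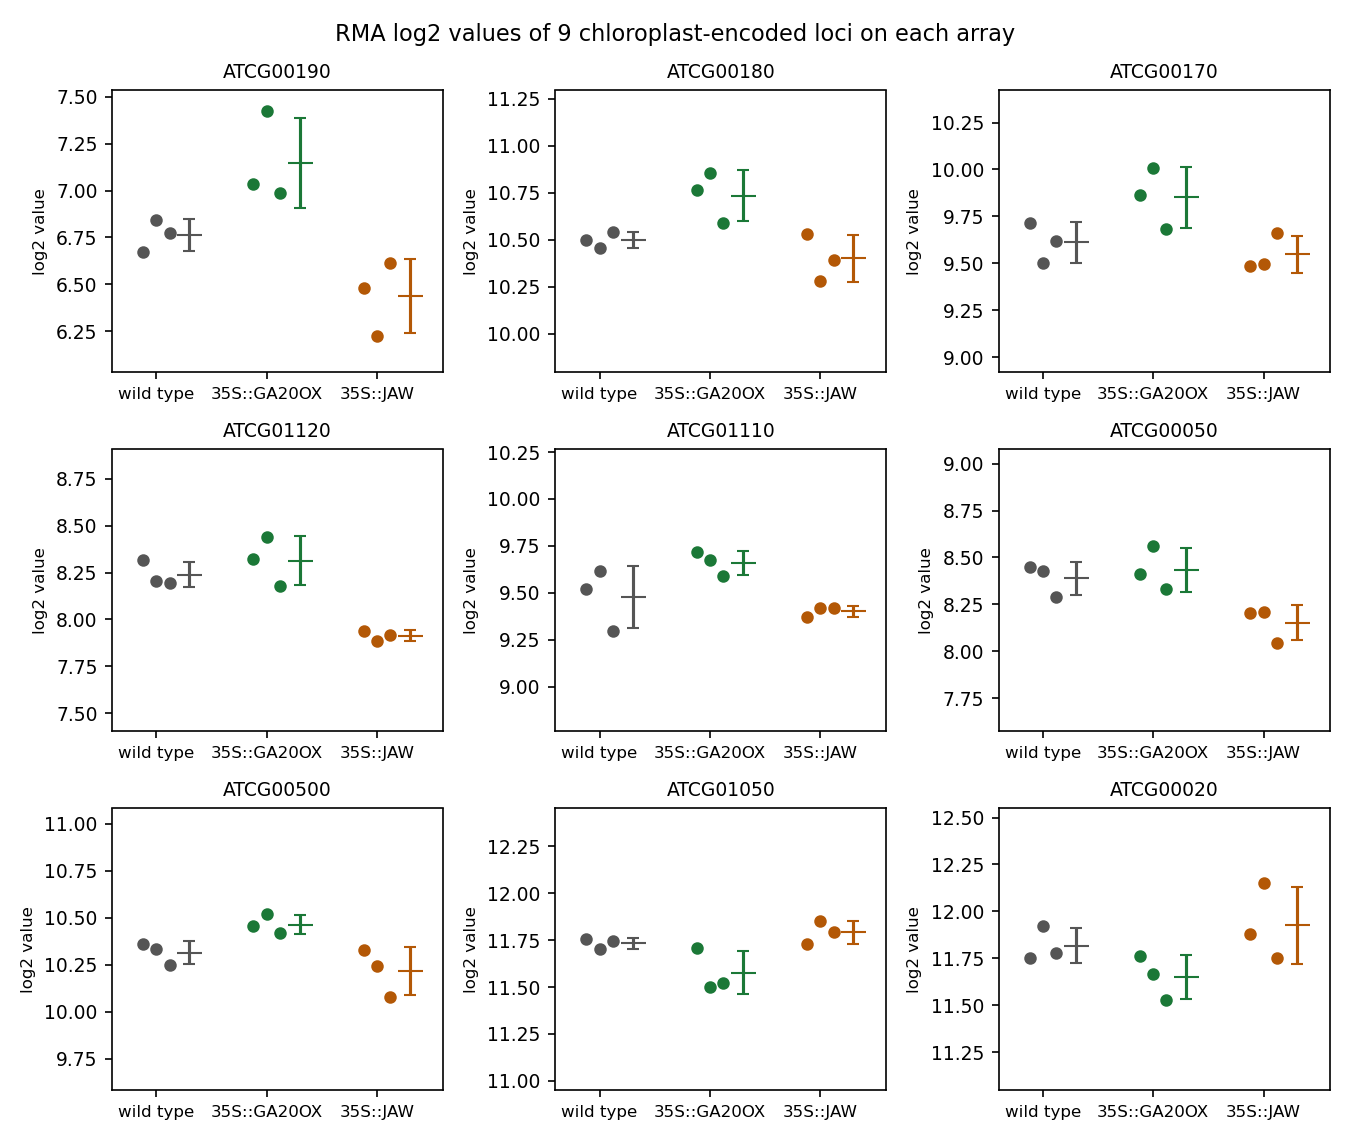
Log2 value (RMA) on each array for 9 chloroplast-encoded loci, with points for the 3 arrays of each genotype and a side bar for the mean ± SD (n = 3). Every panel spans the same range of log2 units. At ATCG00190 the 35S::GA20OX arrays lie above the wild type arrays and the 35S::JAW arrays below them.

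The direct comparison of 35S::JAW with 35S::GA20OX held the larger differences. In it 4 chloroplast-encoded loci were lower in 35S::JAW (ATCG00190, ATCG01120, ATCG00180 and ATCG00050) and none was higher, or 5.48 percent of the loci, beside 6.52 percent of all rows called lower, 6.71 percent called higher and 13.2 percent called in all. The share called was thus below that of all rows, and the share called lower was near it. The differences ran from -0.71 to 0.27 with a median of -0.03, beside 0.01 over all rows, and 43 of the 73 were negative. At an unadjusted p below 0.05 there were 11 loci with lower and 3 with higher values in 35S::JAW, together a smaller share than the 5245 of all 20777 rows. Arrays did not overlap at 19 loci with lower values (26 percent, beside 14.3 percent of all rows) and at 3 with higher values (4.11 percent, beside 15.9 percent of all rows). In both directions together this was 30.1 percent of the loci, beside 30.2 percent of all rows. The 3 comparisons share arrays in pairs and are not independent.

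ATCG00190 differed most. Its values were 7.03, 7.42 and 6.98 in 35S::GA20OX and 6.48, 6.22 and 6.61 in 35S::JAW, with the wild type arrays between them, at 6.67, 6.84 and 6.77. The difference was -0.71 ± 0.13 (SE; adjusted p = 0.00337), a 1.63-fold lower signal, with a 95 percent interval from -0.98 to -0.43. It was the only one of the 73 loci at which every 35S::GA20OX array lay above every wild type array and every wild type array above every 35S::JAW array. Leaving out any 1 array gave differences of -0.80 to -0.57 and adjusted p values up to 0.0113.

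The neighbouring codes ATCG00180 and ATCG00170 had lower values in 35S::JAW as well. ATCG00180 read 10.76, 10.85 and 10.59 in 35S::GA20OX and 10.53, 10.28 and 10.39 in 35S::JAW, a difference of -0.33 ± 0.09 (adjusted p = 0.0253), with wild type at 10.50, 10.45 and 10.54. Its call was lost without 35S::GA20OX replicate 1 or 2 or 35S::JAW replicate 2 or 3 (adjusted p up to 0.0977) and in a fit to the 6 arrays compared (adjusted p = 0.0542). ATCG00170 read 9.87, 10.01 and 9.68 in 35S::GA20OX and 9.49, 9.50 and 9.66 in 35S::JAW, a difference of -0.30 ± 0.09 that missed the threshold (adjusted p = 0.0567). At both loci the wild type values lay nearer to those of 35S::JAW. Thus 3 consecutive loci of the table had values in the same order of lines, and at each the arrays of the 2 lines did not overlap.

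A second stretch of neighbouring codes held ATCG01110 and ATCG01120. ATCG01120 read 8.32, 8.44 and 8.18 in 35S::GA20OX and 7.94, 7.88 and 7.92 in 35S::JAW, a difference of -0.40 ± 0.08 (adjusted p = 0.00508) or 1.32-fold. The 35S::GA20OX values overlapped those of wild type, so here 35S::JAW was the genotype that stood apart, and the call held without any 1 array (adjusted p up to 0.0218). ATCG01110 read 9.72, 9.68 and 9.59 in 35S::GA20OX and 9.37, 9.42 and 9.42 in 35S::JAW, a difference of -0.26 ± 0.08 (adjusted p = 0.0652), with wild type spread over both at 9.52, 9.61 and 9.30.

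ATCG00050 was the last locus to pass. It read 8.41, 8.56 and 8.33 in 35S::GA20OX and 8.20, 8.21 and 8.04 in 35S::JAW, a difference of -0.28 ± 0.08 (adjusted p = 0.0445) or 1.21-fold. The arrays did not overlap, and wild type (8.45, 8.43 and 8.29) lay with 35S::GA20OX. The call was lost when arrays were centred on their overall medians (adjusted p = 0.0788) and without single arrays (adjusted p up to 0.159). Just outside the threshold lay ATCG00170, described above, and then ATCG00500, at 10.46, 10.52 and 10.42 in 35S::GA20OX and 10.33, 10.25 and 10.08 in 35S::JAW, a difference of -0.25 ± 0.08 (adjusted p = 0.0574).

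Higher values in 35S::JAW than in 35S::GA20OX were seen at ATCG00020 and ATCG01050 without passing the test. ATCG00020 read 11.76, 11.66 and 11.53 in 35S::GA20OX, 11.88, 12.15 and 11.75 in 35S::JAW and 11.75, 11.92 and 11.78 in wild type, with overlapping arrays and a difference of 0.27 ± 0.10 between the lines (adjusted p = 0.117). ATCG01050 read 11.71, 11.50 and 11.52 in 35S::GA20OX and 11.73, 11.85 and 11.79 in 35S::JAW, a difference of 0.22 ± 0.07 (adjusted p = 0.076). Here 35S::JAW lay close to wild type (11.76, 11.70 and 11.75).

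**Figure D3:**
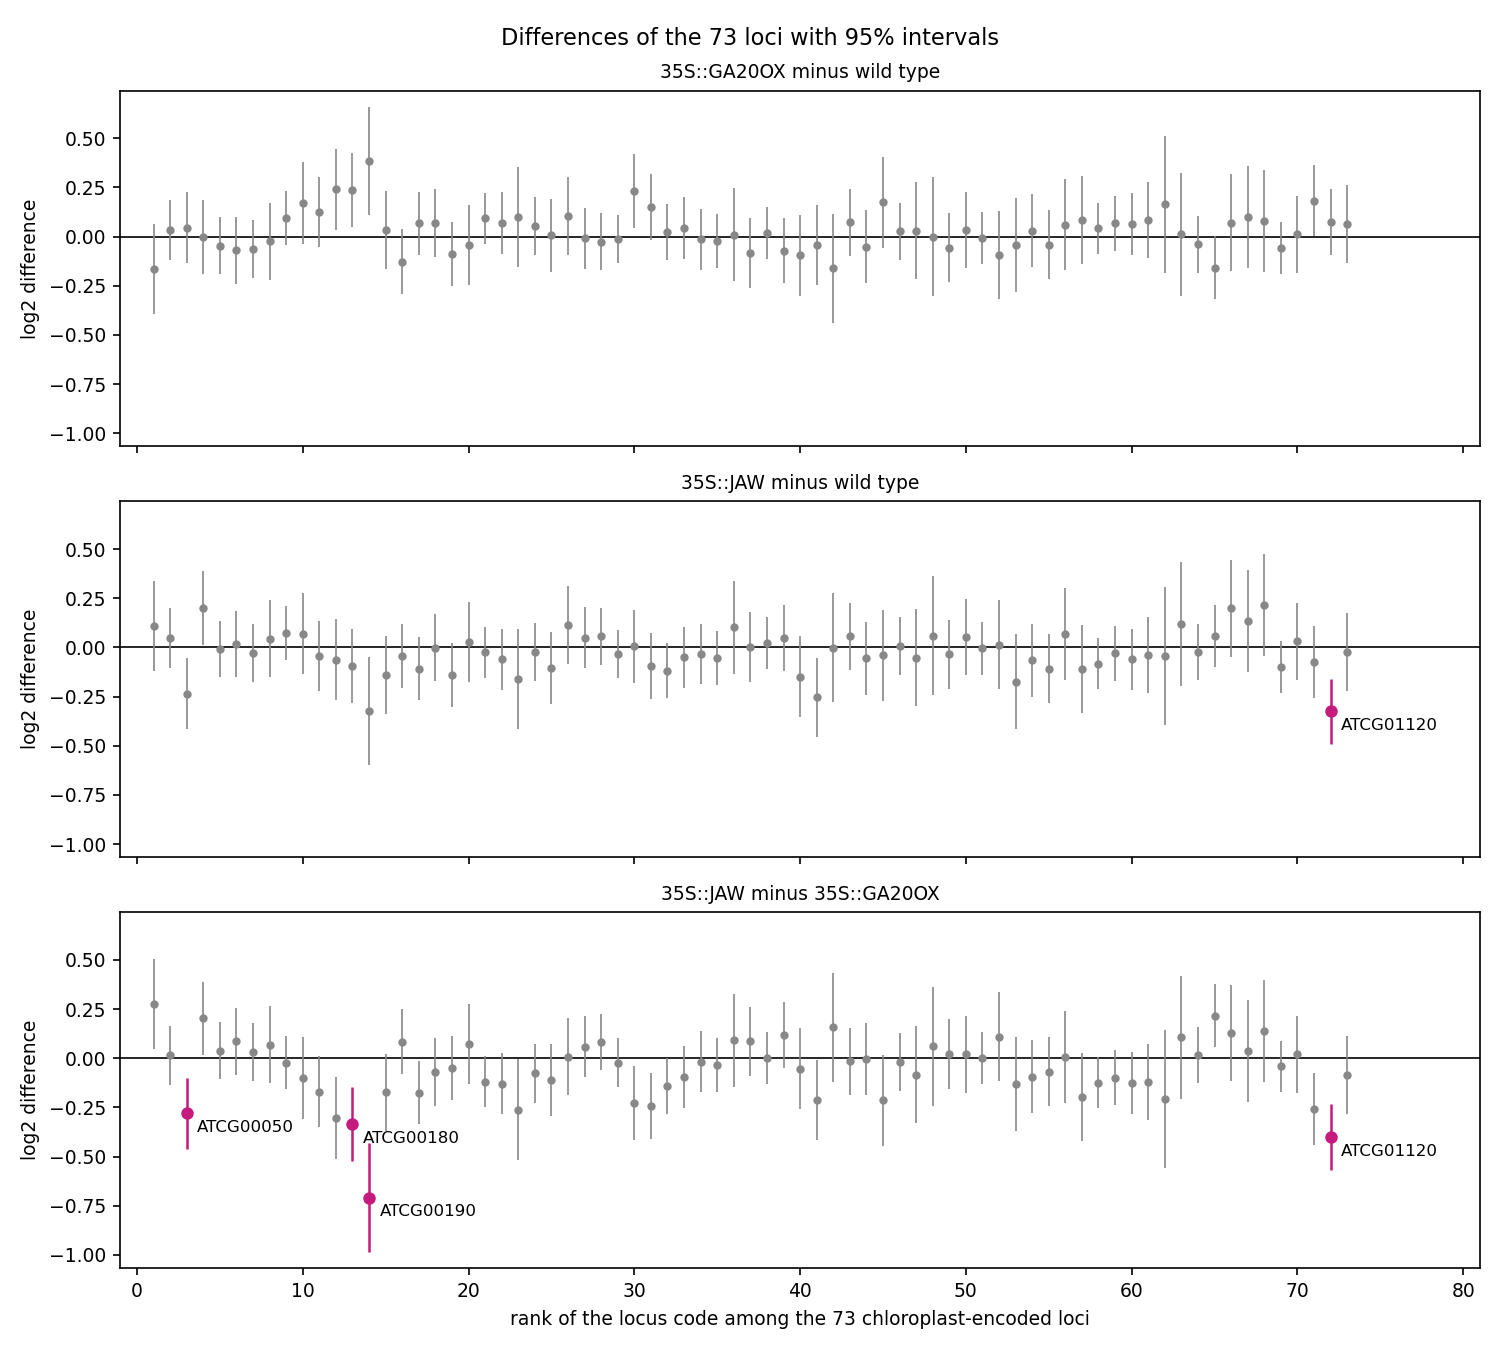
Log2 difference of each of the 73 chloroplast-encoded loci with its 95 percent interval, in the order of locus codes, for the 3 comparisons. Larger magenta points passed the adjusted p threshold of 0.05: 0 loci for 35S::GA20OX minus wild type, 1 for 35S::JAW minus wild type and 4 for 35S::JAW minus 35S::GA20OX.

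Loci with neighbouring codes tended to have close differences between the lines, and hardly so in 35S::JAW against wild type. Among the 72 pairs of neighbours in the list of codes, the differences of 35S::JAW minus 35S::GA20OX had the same sign in 51 (70.8 percent), beside 50.9 percent of all 2628 pairs of loci, and their median gap was 0.103 beside 0.135. For 35S::GA20OX minus wild type the signs matched in 45 pairs (62.5 percent, beside 51.4 percent), and for 35S::JAW minus wild type in 39 (54.2 percent, beside 52.1 percent). The median gaps were 0.064 beside 0.087 and 0.085 beside 0.091. These shares are a description, since loci of 1 operon can share transcripts and all pairs share the same arrays. No locus was assigned to an operon here, and the part of operons was not tested.

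The loci called between the lines were not among the brightest. All 73 were split by their mean over all arrays into the 24 dimmest, 24 in the middle and 25 brightest. The median difference of 35S::JAW minus 35S::GA20OX was -0.15 in the dimmest group, -0.03 in the middle and -0.02 in the brightest. The 4 loci called lower fell 3, 1 and 0 into these groups, beside 6.52 percent of all rows. With so few calls these counts do not show a dependence on signal. Loci whose arrays did not overlap between the lines numbered 10, 6 and 3 with lower and 1, 2 and 0 with higher values in 35S::JAW, in the same order. Over all rows the shares were 14.3 percent lower and 15.9 percent higher. The differences of the brightest group spanned -0.13 to 0.16. Its spread was smaller too, with median pooled standard deviations of 0.125, 0.102 and 0.063 from the dimmest to the brightest group. The median differences of 35S::GA20OX minus wild type were 0.08, 0.03 and -0.01 in the same order, and those of 35S::JAW minus wild type -0.04, -0.03 and -0.02. Whether bright probes were limited by their range was not tested.

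Among nuclear genes for organelle transcription, 1 of 3 phage-type polymerases and most of the polymerase-associated proteins were lower in 35S::JAW than in 35S::GA20OX. SCA3, a phage-type RNA polymerase of the chloroplast, read 7.51, 7.43 and 7.42 in 35S::GA20OX, 6.86, 6.90 and 7.07 in 35S::JAW and 7.33, 6.93 and 7.24 in wild type. It was lower in 35S::JAW than in 35S::GA20OX by 1.42-fold (difference -0.51 ± 0.10, adjusted p = 0.00634), while the difference from wild type was -0.22 (adjusted p = 0.236). The other listed phage-type genes, RPOTm and RPOTmp, had higher means in 35S::JAW than in 35S::GA20OX. Their differences were 0.03 and 0.14, and neither was called (adjusted p = 0.928 and 0.420). Of 13 genes for proteins associated with the bacterial-type polymerase, 12 were measured. In 35S::JAW 9 of these were lower than in 35S::GA20OX and 4 lower than in wild type, and none was higher. Over all rows 6.52 percent were called lower between the lines and 3.98 percent against wild type. The median differences of the 12 genes were -0.41 and -0.27. None was called in 35S::GA20OX against wild type, where the median was 0.14.

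Examples of the associated proteins are FLN2, a fructokinase-like protein, and the iron superoxide dismutases FSD2 and FSD3. FLN2 read 8.78, 8.47 and 8.70 in wild type, 9.02, 9.02 and 8.84 in 35S::GA20OX and 8.08, 8.20 and 8.30 in 35S::JAW. The 3 groups did not overlap, and 35S::JAW was lower by 0.46 than wild type (adjusted p = 0.0116) and by 0.76 than 35S::GA20OX (adjusted p = 0.000331). PDE312, an RNA-binding protein of the complex, differed by -0.42 (adjusted p = 0.0173) from wild type and by -0.56 (adjusted p = 0.0022) from 35S::GA20OX. FSD3 differed by -0.36 (adjusted p = 0.0287) from wild type and by -0.50 (adjusted p = 0.0036) from 35S::GA20OX, and FSD2 by -0.36 (adjusted p = 0.0309) and -0.44 (adjusted p = 0.0082). With arrays centred on the chloroplast-encoded loci, 0 of the 12 genes were called lower against wild type and 5 against 35S::GA20OX. The count against wild type fell to 0 without wild type replicate 1 or 3 or 35S::JAW replicate 1 and to 2 without 35S::JAW replicate 2. The count against 35S::GA20OX fell to 5 without any 1 array of 35S::GA20OX and to 4 without 35S::JAW replicate 1.

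Among the 6 sigma factors a single gene passed the test. SIGE (SIG5), a light- and stress-responsive sigma factor, was higher in 35S::JAW than in 35S::GA20OX by 0.35 ± 0.10 (adjusted p = 0.0359), and 1 of 6 is near the 13.2 percent of all rows called between the lines. Of 15 genes for chloroplast RNA processing and stability, 4 were lower and 2 higher in 35S::JAW than in 35S::GA20OX, with a median of -0.18, beside 6.52 percent of all rows called lower and 6.71 percent called higher. CRR4, an RNA editing factor, CRR2, which acts in cleavage between genes of a shared transcript, RIF10, a polynucleotide phosphorylase, and emb2746 were the lower ones, by 0.26 to 0.63. HCF173, which promotes translation of a photosystem II core subunit mRNA, was higher by 0.36 (adjusted p = 0.0164), and CSP41A, an RNA-binding protein, by 0.21 (adjusted p = 0.0352). Against wild type emb2746 (-0.39, adjusted p = 0.0292) and CRR4 (-0.35, adjusted p = 0.0333) were lower in 35S::JAW, 2 of 15 beside 3.98 percent of all rows. CRR4 was dim, at 4.44, 4.23 and 4.52 in wild type and 4.18, 3.99 and 3.98 in 35S::JAW. The lower quartile of all rows was 4.28 to 4.42 on the 9 arrays, so both calls of CRR4 rest on a signal near the low end.

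Among nuclear genes for subunits of chloroplast complexes, plastocyanin and ferredoxin-NADP reductase, 1 passed the test. None of 12 photosystem I, 8 photosystem II, 3 ATP synthase, 3 NDH and 16 chloroplast ribosomal protein genes measured was called in any comparison. Over all rows 0.332 percent were called in 35S::GA20OX and 8.32 percent in 35S::JAW against wild type, and 13.2 percent between the lines. In the order given, the sets had median differences of 35S::JAW minus 35S::GA20OX of 0.08, 0.05, 0.08, -0.03 and 0.01. Differences were positive at 12, 8, 3, 1 and 9 of their genes, and the largest in photosystem I was 0.15. Arrays of the lines did not overlap at 9, 4, 1, 0 and 1 genes with higher values in 35S::JAW (15.9 percent of all rows). With lower values these were 0, 0, 0, 1 and 3 (14.3 percent of all rows). For 35S::GA20OX minus wild type 12, 8, 3, 3 and 13 differences were negative. Of 6 genes for the cytochrome b6f complex, plastocyanin and ferredoxin-NADP reductase, the reductase gene FNR1 was higher in 35S::JAW than in 35S::GA20OX by 0.22 (adjusted p = 0.0445), beside 6.71 percent of all rows called higher. The other reductase gene listed, FNR2, went the other way without a call. Its 35S::JAW values differed by -0.15 from 35S::GA20OX (adjusted p = 0.121) and by -0.21 from wild type (adjusted p = 0.0505). None of the 4 listed genes for the Rubisco small subunit had a row under its own code, so they could not be compared.

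**Figure D4:**
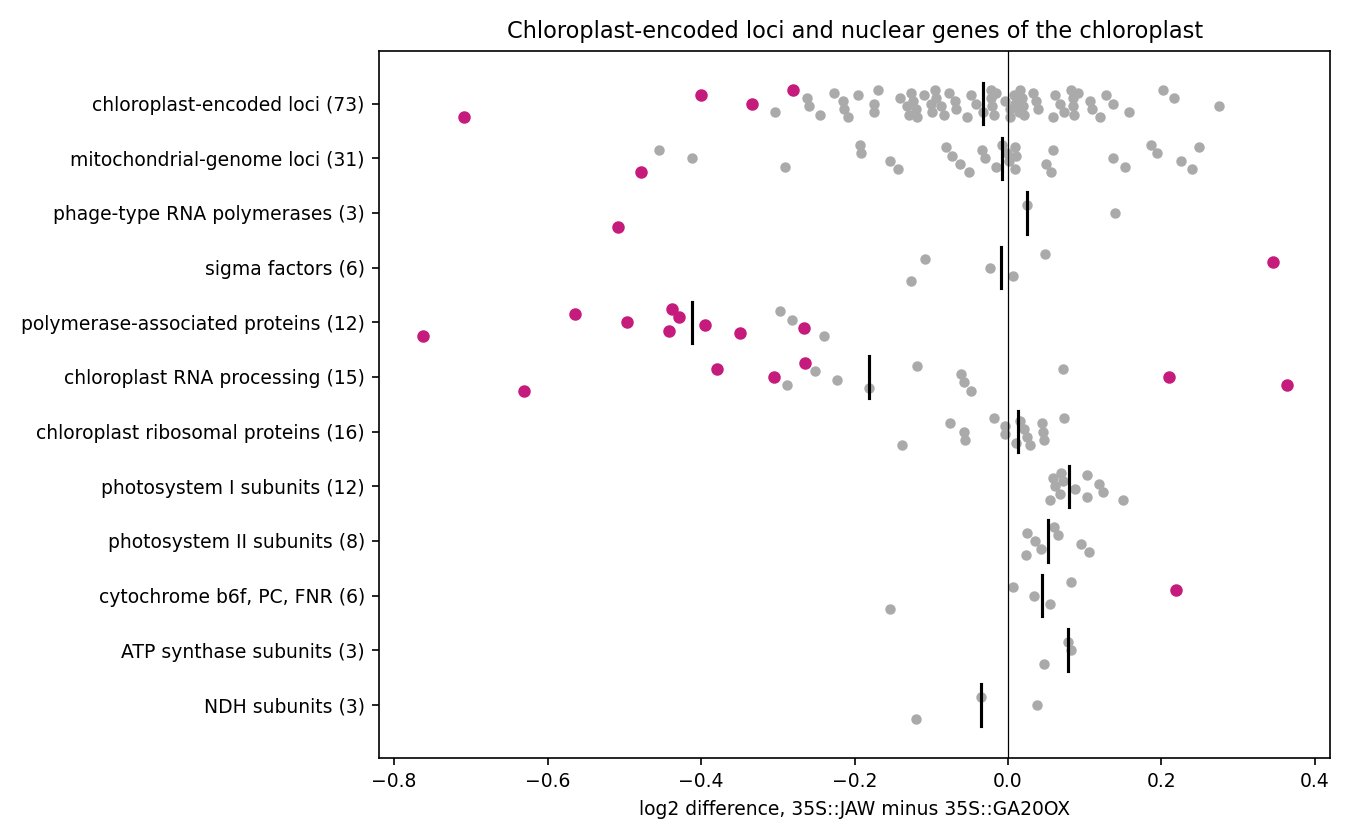
Log2 difference, 35S::JAW minus 35S::GA20OX, of each measured gene of the chloroplast genome, the mitochondrial genome and the nuclear lists, with the number of genes in parentheses. Black lines are medians and magenta points passed the adjusted p threshold of 0.05. The polymerase-associated proteins have a median of -0.41 and the 73 chloroplast-encoded loci one of -0.03.

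The 31 rows with the ATMG prefix of the mitochondrial genome served as a second set of organelle loci. Their values were low, from 3.6 to 7.0. No locus was called in either comparison with wild type, and 1 of 31, ATMG00660, was lower in 35S::JAW than in 35S::GA20OX by 0.48 (adjusted p = 0.0277). Over all rows 6.52 percent were called lower between the lines. Their median difference between the lines was -0.01, beside -0.03 for the chloroplast-encoded loci.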

How the data were processed

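Log2 expression values of 9 ATH1 arrays (3 genotypes, 3 biological replicates each, per the labels) were used as deposited. Per the submitters' processing notes, the authors obtained the log2 values with RMA. This method corrects background, makes array distributions nearly equal and summarises probes, which hides changes shared by all genes and compresses those of dim ones. The sources used here do not give its version, the chip definition or which arrays were normalised jointly. Detection calls, control probes and scan dates were not used here, so background and batches could not be checked, and the number of arrays limits the precision.

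A mean per genotype was fitted to all 20777 rows and 9 arrays with limma 3.58.1 in R 4.3.3 (constant prior). Two-sided p-values were adjusted by the Benjamini-Hochberg method over all rows, with a threshold of 0.05. No row was left out. The script was tested on simulated data. Alternatives covered scaling, a filter on dim rows, weights of arrays, the variance prior, a block of replicate numbers, the arrays fitted, thresholds and leaving out each array.

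The members and lists were chosen with earlier results of these data known. Loci named are those called, the extremes of difference, level and spread, and, from nuclear lists, up to 4 called genes or the most different one. Further RNA-processing genes, the genes of the label check and loci near the threshold were named after their values were seen. No gene name was paired with the members, so the parts of that rule on functional groups and shared symbols could not be applied. All 97 measured list loci matched RefSeq symbols.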

Additional observations from a re-analysis of the deposited data

How the results depend on the processing

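Setting each array to its median over the chloroplast-encoded loci moved the median difference of these loci to 0.1181 for 35S::GA20OX minus wild type and to 0.057 for 35S::JAW minus wild type, and left 0 loci called lower in 35S::JAW against wild type. This setting shifts all rows of an array by the same amount. Its effect on the medians follows from the genotype means of the array medians (11.77 in wild type, 11.68 in 35S::GA20OX and 11.69 in 35S::JAW). Under the same shift 0 polymerase-associated genes were called lower against wild type and 5 against 35S::GA20OX. The alternatives for these genes were chosen after seeing the data. At an adjusted p of 0.01 the chloroplast-encoded loci lower in 35S::JAW numbered 0 against wild type and 2 against 35S::GA20OX, and the polymerase-associated genes 0 and 4. Requiring a 2-fold change left 0 in each of these 4 counts. Leaving out the dimmest 40 percent of rows gave 7 loci lower and 1 higher in 35S::JAW than in 35S::GA20OX, and an intensity trend with a robust prior gave 9 and 1. Shares of all rows called under the alternatives were not computed, so a rise in these counts is not a result about the loci. Apart from the thresholds and the shift by centring, the cause of these changes was not tested.

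Leaving out 1 array at a time, the loci called in 35S::JAW against wild type numbered 0 to 1 higher and 0 to 1 lower, and against 35S::GA20OX 0 to 1 higher and 2 to 5 lower. The count of 2 came without 35S::GA20OX replicate 1 or 2 or 35S::JAW replicate 2 or 3. The polymerase-associated genes lower numbered 0 to 6 and 4 to 11. The medians ran from -0.0163 to 0.0563 (35S::GA20OX minus wild type), -0.0567 to 0.0103 (35S::JAW minus wild type) and -0.0659 to -0.0168 (between the lines). Uncalled differences changed sign at ATCG00050 in 35S::GA20OX (-0.0186 to 0.0963) and in 35S::JAW against wild type at ATCG01070 (-0.0017 to 0.2793) and ATCG01020 (-0.0281 to 0.3271). ATCG00170 was called lower in 35S::JAW than in 35S::GA20OX with cyclic loess (adjusted p = 0.0462) and ATCG01050 higher without the dimmest rows (adjusted p = 0.0401). Over all alternatives, 749 values kept their direction and side of the threshold or stayed close, 29 lost and 8 gained a call, 36 counts or medians moved and 4 uncalled differences changed sign.

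Deviations of same-numbered arrays correlated at -0.10 to 0.25 over 9 pairs, beside -0.22 to 0.17 for arrays of different number and genotype. Of 9 arrays, 3 correlated best with their own number. These values do not settle whether samples of the same number were paired. With the replicate number as a block, 5 loci were lower in 35S::JAW than in 35S::GA20OX and 1 than in wild type. Each replicate number occurs once in every genotype, so this block cannot change a difference between genotypes. The medians of 0.0292, -0.0286 and -0.0331 were therefore bound to stay the same and are no check.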
